A study of Homo sapiens with 22 samples.

Results

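The genes described here are those whose symbol is CD followed by a number and at most 1 letter, such as CD34, CD36, CD38, CD44 and CD47. They were chosen by name from the gene names shared by both count tables, and 78 of 59087 gene names met the rule. CD numbers are given to cell surface molecules in the order in which antibodies to them were grouped, so the name says nothing about function, and many antigens with a CD number carry another gene symbol and are not among the 78. On the erythroid lineage the surface changes in step with maturation: progenitors carry CD34, early erythroblasts carry the fatty acid translocase CD36 and the hyaluronan receptor CD44, and CD44 declines as the cells mature. Red cells keep CD47, which holds off phagocytosis by macrophages, and the complement regulators CD55 and CD59.

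The RNA came from HUDEP-2, an immortalized human erythroid progenitor line derived from umbilical cord blood, grown in expansion medium (D0) or taken after 6 days in medium that lets the cells mature (D6). In the first experiment, H2A.X WT cells (n = 2 at each day) were compared with H2A.X KO cells (n = 3 at each day), in which the histone variant H2A.X had been knocked out with CRISPR/Cas9. In the second, BAZ1B WT cells were compared with BAZ1B KO cells (n = 3 in each group at each day), in which the gene for the kinase BAZ1B had been knocked out in the same way. The libraries came from WT and KO subclones of this 1 line, so the spread between them is that between subclones or cultures, and no group received another agent. The questions were how the surface genes changed from D0 to D6 and how either knockout changed them at each day.

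Total counts ranged from 11910141 to 21013004 per library in the H2A.X experiment and from 33199408 to 41273244 in the BAZ1B experiment, and the biological coefficient of variation was 0.239 and 0.0865, so smaller changes could be called in the BAZ1B libraries. H2AFX, the gene for H2A.X, fell by 1.5 on the log2 scale at D0 and by 1.52 at D6 in H2A.X KO cells (adjusted p = 0.0304 and 0.0233), and every KO library lay below every WT library, although reads remained in all of them. The BAZ1B transcript fell by 0.40 at D0 and by 0.38 at D6 in BAZ1B KO cells (adjusted p = 0.00415 and 0.0025), again with no overlap, but the BAZ1B guides flanked the first exon only, so reads from the other exons do not check the deletion. All 8 erythroid markers had reads in every group, and their summed level was higher at D6 than at D0 in each genotype, in the BAZ1B experiment from between 222550 and 283940 normalized counts to between 1089100 and 1452500. The count columns of 5 of the 6 H2A.X KO libraries, and of no WT library, carry the word Redo, and whatever it stands for cannot be told apart from genotype at D0. The KO library without it is replicate 3 at D6. The KO group at D6 thus mixes both kinds, which enters every comparison that uses it.

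Most CD-numbered genes were silent or close to it. Of the 78, 24 had no read in any of the 22 libraries, 49 passed the filter on low counts in neither experiment, and 22 passed it in both. The filter, which asks for about 10 reads in as many libraries as the smallest group holds, left 24 members tested among 13236 genes in the H2A.X experiment and 27 among 13879 in the BAZ1B experiment. The highest count of any member that was not tested was 16 reads in the H2A.X experiment and 18 in the BAZ1B experiment. Because a gene that is high in 1 group passes this filter through that group, the tested members are not all members.

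Detection differed between the role groups. All 4 genes of the complement and phagocytosis checkpoint group (CD46, CD47, CD55 and CD59) were tested in both experiments, as were 5 (H2A.X) and 6 (BAZ1B) of 7 tetraspanins, small membrane organizers. Of 18 monocyte, macrophage and dendritic cell antigens, 1 was tested in each experiment (CD83), of 17 T and NK cell antigens, 3 in each, and of 6 B cell antigens, only CD79A in the BAZ1B experiment. The progenitor antigen CD34 reached 3 reads at most in an H2A.X library and 8 in a BAZ1B library, and CD38, an enzyme of early progenitors and plasma cells, had no read outside a single BAZ1B KO library at D0, which held 3. CD24 reached 2 reads at most and CD9 had none, so a change in these genes was not detectable at this depth. CD99 is listed at 0 in every library, but it lies where the X and Y chromosomes share their sequence, and all 15 coding genes annotated at the same place on both are listed at 0, so this 0 is no measure of its level.

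Among the tested members, levels compared per kilobase of transcript differed by several orders of magnitude. A normalized count is a read count divided by the library's relative effective size. CD36 was the most abundant in both experiments, with 4612 normalized counts per kilobase (mean over all libraries) in the first experiment and 8180 in the second. The endosomal and granule tetraspanin CD63 came next at 3265 and 5629, followed by the sialomucin CD164, an adhesion molecule of progenitors, at 2493 and 5489. CD82, a tetraspanin that restrains cell movement, had 1257 and 3208, and CD320, the receptor that takes up vitamin B12 bound to transcobalamin, had 970.9 and 1970. The 2 tables were fitted separately, so these levels are read within an experiment only. Exons of genes on the other strand overlap 7.67% of the exonic bases of CD37 (TEAD2), 6.60% of CD151 (POLR2L) and 4.95% of CD63 (CD63-AS1), and exons on the same strand 5.96% of CD59 and 3.33% of CD320, so their reads are uncertain to an extent that was not measured.

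**Figure D1:**
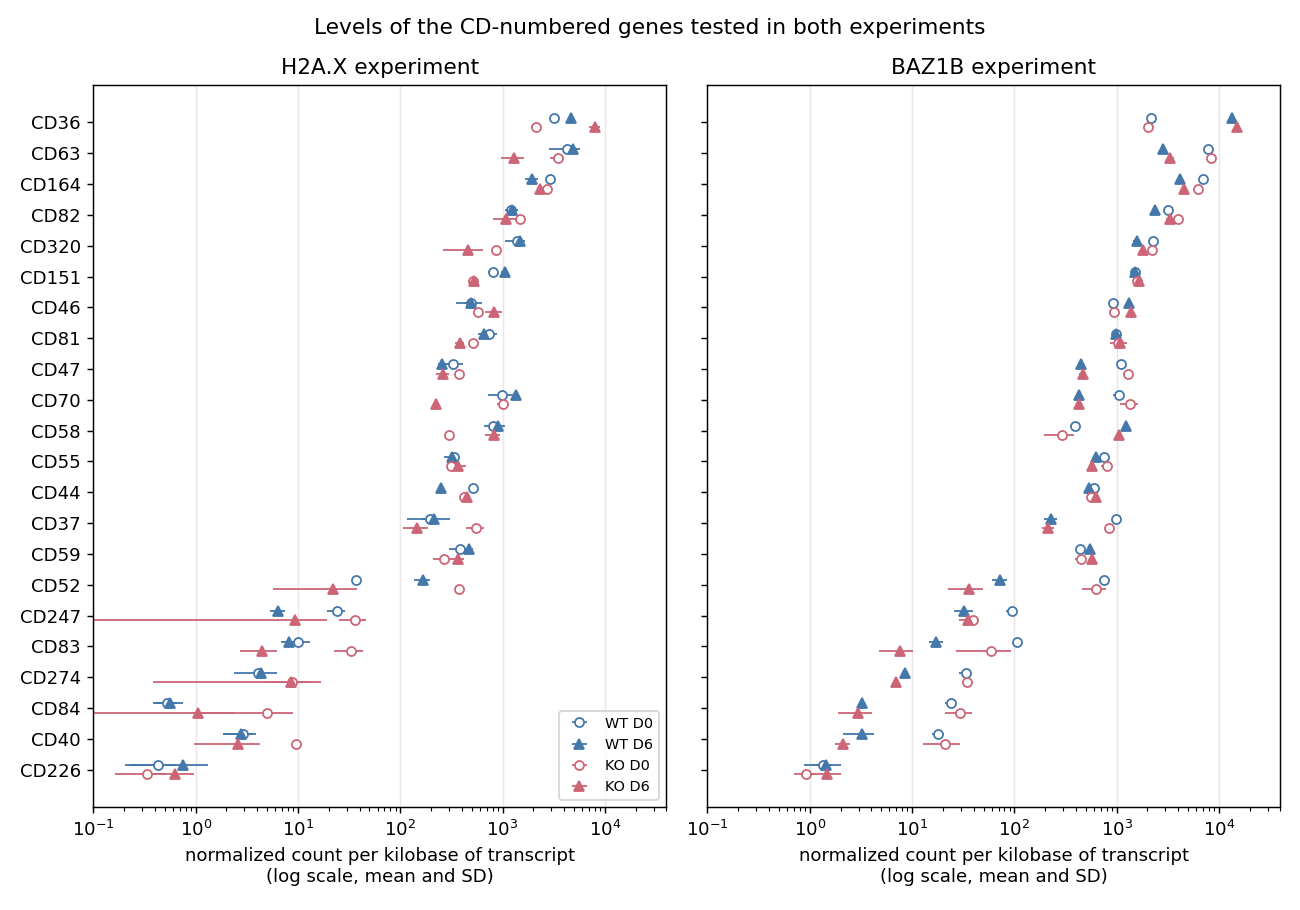
Levels of the 22 CD-numbered genes tested in both experiments, as normalized counts per kilobase of transcript on a log axis, ordered by their mean level in the BAZ1B experiment. Points are group means and bars 1 SD over 2 or 3 libraries, circles D0, triangles D6, blue WT and red KO; a bar that reaches the left edge has an SD as large as its mean. CD36, CD63 and CD164 sit at the top in both panels, and from CD247 downward the group means lie more than an order of magnitude below those of most other members.

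Maturation was followed most precisely in the BAZ1B experiment, where 22 of the 27 tested members differed between D6 and D0 in WT cells (edgeR quasi-likelihood test, Benjamini-Hochberg adjusted p below 0.05), which is 81.5% of the members against 68.9% of all 13879 genes. Of these, 5 rose and 17 fell (33.5% and 35.4% of all genes), and the members' median log2 fold change was -0.76, while that of all genes was -0.02. In bulk RNA, fewer cells of a type and less RNA per cell cannot be told apart, and this holds for every change below. CD36 rose most in reads: the 3 WT libraries held 9998, 9921 and 10031 normalized counts at D0 and 61454, 60908 and 61524 at D6. Every D6 library was thus about 6 times above every D0 library, a log2 fold change of 2.62 ± 0.04 (SE), or 6.14-fold, with adjusted p = 7.61e-13.

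CD58, the adhesion ligand that T and NK cells bind through CD2, rose alongside CD36. Its WT libraries held 405, 442 and 435 normalized counts at D0 and 1286, 1284 and 1431 at D6, a 3.12-fold rise with no overlap (adjusted p = 7.32e-07). CD80, a costimulatory ligand of T cells, had the largest fold among the risers but a low level, with 3.66, 2.58 and 2.64 normalized counts at D0 and 27.9, 29.4 and 28.2 at D6 (log2 fold change 3.22 ± 0.34, adjusted p = 2.04e-06). Exons of TIMMDC1 on the other strand cover 24.8% of the exonic bases of CD80, so its reads are uncertain where counting ignored strand. The complement regulators CD46 and CD59 rose by 0.52 and 0.34 on the log2 scale, whereas CD55, which speeds the decay of complement convertases, fell by 0.23. The CD46 change had adjusted p = 3.76e-06, that of CD59 0.000454 and that of CD55 0.0145.

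CD47, which red cells carry as a signal against phagocytosis, fell with maturation. The WT libraries held 5936, 5813 and 5889 normalized counts at D0 and 2393, 2376 and 2413 at D6, so each D6 library held less than every D0 library by a factor of about 2.46 (log2 fold change -1.30 ± 0.07, adjusted p = 3.37e-09). Of the progenitor and erythroid stage antigens, CD164 fell from 21154 ± 742 to 12498 ± 685 (SD, n = 3), a log2 fold change of -0.76 (adjusted p = 5.36e-08). CD44 changed little in this experiment, with 3263, 3311 and 3145 normalized counts at D0 and 2968, 2796 and 2998 at D6 in WT cells. The WT groups did not overlap and the change of -0.15 ± 0.05 passed the test (adjusted p = 0.0184), but it came to -0.02 (adjusted p = 0.701) after a correction for transcript length and GC content.

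Of the 6 tetraspanins tested, CD63, CD37, CD53 and CD82 fell in WT cells, and CD81 and CD151 did not pass the test. CD63 had 7931, 8211 and 8029 normalized counts at D0 and 3082, 2807 and 2857 at D6 (log2 fold change -1.47 ± 0.06, adjusted p = 7.07e-10). CD37, a tetraspanin best known on B cells, had 1289.8, 1227 and 1224 at D0 and 289, 246 and 327 at D6 (log2 fold change -2.11 ± 0.11, adjusted p = 2.62e-09). CD53, a leukocyte tetraspanin, had 15.5, 16.4 and 15 normalized counts at D0 and no read at D6, at least 4.80-fold lower against a floor of 3 reads per library. CD82 fell by 0.42 on the log2 scale, and CD81 and CD151 had log2 fold changes of -0.02 and 0.01.

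Several leukocyte antigens of low level fell as well, among them CD52, CD84, CD83 and CD33, while CD226 and CD79A did not pass the test. CD52, a small glycoprotein of lymphocytes, monocytes and eosinophils, had 309, 364 and 369 normalized counts at D0 and 36.8, 37.3 and 27.2 at D6 in WT cells. CD84, an adhesion receptor that binds itself and is found on mast cells, platelets and lymphocytes, had 169, 204 and 212 at D0 and 26.8, 26.0 and 26.2 at D6. CD83, a marker of mature dendritic cells, had 253, 258 and 238 at D0 and 43.5, 44.1 and 33.2 at D6. None of these groups overlapped, and the log2 fold changes were -3.36 ± 0.25 (CD52), -2.88 ± 0.27 (CD84) and -2.63 ± 0.38 (CD83), with adjusted p between 7.22e-08 and 4.14e-05. CD33, a sialic acid binding receptor of myeloid cells, had 13.7, 25.8 and 22.0 normalized counts at D0 and no read at D6, at least 6.31-fold lower.

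The costimulatory and checkpoint genes CD70, CD40 and CD274 (PD-L1) fell too. CD70, the ligand of CD27, had 819, 986 and 1059 normalized counts at D0 and 405, 384 and 372 at D6 (log2 fold change -1.30 ± 0.13, adjusted p = 1.79e-06). CD274 fell by 1.95 on the log2 scale and CD40 by 2.46, the latter from 30.3 ± 4.09 to 5.39 ± 1.81 normalized counts (SD, n = 3). CD247, the zeta signalling chain of the T cell and NK cell receptors, had 171, 134 and 149.8 at D0 and 52.5, 62.2 and 40.3 at D6, a change of -1.55 ± 0.20 (adjusted p = 1.64e-05).

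Summed levels of markers of mast cells and eosinophils, of megakaryocytes and of monocytes moved in the same direction as these leukocyte antigens. In BAZ1B WT cells the summed level of 11 mast cell and eosinophil markers ranged from 17648 to 19178 normalized counts at D0 and from 1135 to 1537 at D6, and 8 megakaryocyte markers from 2724 to 2841 and from 319 to 393. The 6 monocyte markers summed to between 165 and 239 at D0 and between 26.8 and 30.2 at D6, and the 8 lymphocyte markers to no more than 14.6 in any of these libraries, with 5 of the 8 without a read in WT cells at D0. Of the mast cell and eosinophil markers 7 were tested and all fell, as did the 1 megakaryocyte marker tested. Of the 2 monocyte markers tested 1 rose and 1 fell, and the 1 lymphocyte marker tested was not called. The part of these markers in the falls of CD52, CD84, CD83, CD33, CD53 and CD37 was not tested.

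In BAZ1B KO cells 22 of 27 members differed between the days, 6 up and 16 down, against 67.7% of all genes (33.2% up and 34.5% down). CD36 had 9773, 8942 and 9472 normalized counts at D0 and 67560.4, 68216 and 73544 at D6, a 7.43-fold rise, and CD58 rose 3.65-fold. CD47 fell 2.76-fold, CD63 2.52-fold and CD52 17.3-fold (log2 fold change -4.12 ± 0.27). CD36, CD44 and CD247 were the members whose change differed from that in WT cells by the test of the difference, which is given with the knockout comparisons. CD247 had 73.9, 54.6 and 58.9 normalized counts at D0 and 65.4, 56.9 and 45.0 at D6, overlapping groups with a change of -0.16 ± 0.21 (adjusted p = 0.51). CD33 had 1 read in the 3 KO libraries at D6, and its D0 to D6 ratio was 149 (95% counting interval 26.4 to 5929). CD53 and CD244, an NK cell and mast cell receptor, had no read at D6 and were at least 13.6-fold and 17.6-fold lower than at D0. CD244 varied widely among the KO libraries at D0, with 6.90, 94.1 and 67.4 normalized counts.

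**Figure D2:**
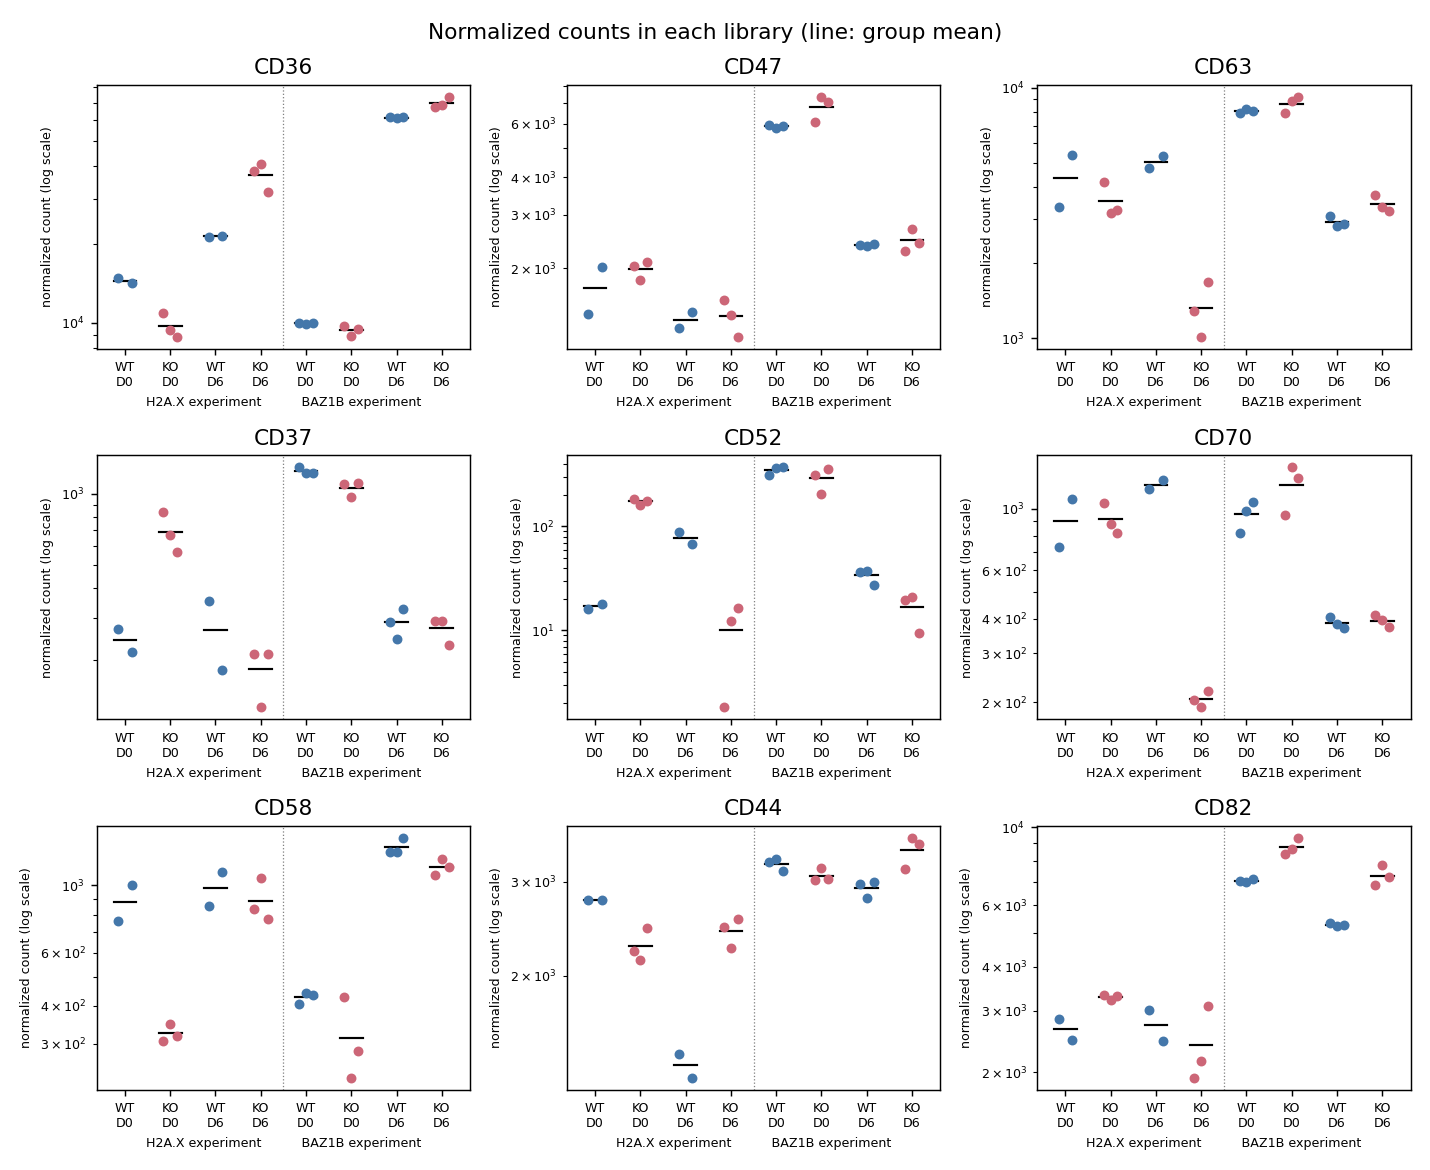
Normalized counts of 9 members in every library, on a log axis that differs between panels, with H2A.X libraries left and BAZ1B libraries right of the dotted line. Each point is a library, blue WT and red KO, and the short line is the group mean. In the BAZ1B experiment WT and KO points of a day lie close together and D0 and D6 lie apart for CD36, CD47, CD63, CD37, CD52, CD70 and CD58, while in the H2A.X experiment KO points change more between days than WT points for CD63, CD37, CD70 and CD58.

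To set the genes that rose beside those that fell, the promoters of CD36 and CD58 (risers) and of CD52 and CD83 (fallers, and among the few with a GATA match) are printed from RefSeq (GRCh38.p14), 250 bases before to 50 bases after the annotated start, 5′ to 3′ on the gene's strand, with capitals marking matches to the GATA motif. The CD36 window is chr7:80601957-80602256 (plus strand), that of CD58 chr1:116570977-116571276 (minus strand), that of CD52 chr1:26317708-26318007 (plus strand) and that of CD83 chr6:14117006-14117305 (plus strand).
CD36: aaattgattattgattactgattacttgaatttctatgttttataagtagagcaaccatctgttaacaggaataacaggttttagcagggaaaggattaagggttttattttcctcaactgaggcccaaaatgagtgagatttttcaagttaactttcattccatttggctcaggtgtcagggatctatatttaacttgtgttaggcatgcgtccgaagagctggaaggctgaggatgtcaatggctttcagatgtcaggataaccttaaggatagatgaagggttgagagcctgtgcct
CD58: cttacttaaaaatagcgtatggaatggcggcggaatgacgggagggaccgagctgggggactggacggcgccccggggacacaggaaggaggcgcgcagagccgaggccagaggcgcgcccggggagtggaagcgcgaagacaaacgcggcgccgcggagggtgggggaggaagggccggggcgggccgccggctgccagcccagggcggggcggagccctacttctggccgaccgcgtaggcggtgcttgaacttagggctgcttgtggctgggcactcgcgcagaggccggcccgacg
CD52: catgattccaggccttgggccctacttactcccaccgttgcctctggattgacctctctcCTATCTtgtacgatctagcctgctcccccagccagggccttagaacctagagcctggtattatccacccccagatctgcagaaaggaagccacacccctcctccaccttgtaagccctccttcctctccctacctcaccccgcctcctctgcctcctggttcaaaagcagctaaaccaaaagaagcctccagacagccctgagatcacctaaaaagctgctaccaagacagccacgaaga
CD83: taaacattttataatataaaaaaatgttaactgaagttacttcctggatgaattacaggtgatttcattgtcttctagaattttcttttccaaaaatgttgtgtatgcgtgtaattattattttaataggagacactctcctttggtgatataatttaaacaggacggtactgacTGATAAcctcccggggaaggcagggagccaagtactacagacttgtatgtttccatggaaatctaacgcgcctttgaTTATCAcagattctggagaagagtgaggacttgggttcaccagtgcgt

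The GATA motif was searched on both strands as AGATAA and as TGATAA, and also with a closing G, that is as AGATAG and as TGATAG. Promoter windows were found for 21 tested members, and 3 of them held a match (CD52, CD83 and CD226), against 25% of 35116 promoters of the same length. The printed fallers were picked for their matches, and other fallers such as CD47, CD63 and CD164 held none. The printed windows thus do not compare risers with fallers. The match in CD52 starts at base 61 of the window and those in CD83 at bases 176 and 253. The CACCC-like motif CCNCNCCC, on both strands, was in 13 of 21 members and in 56.2% of all promoters, including CD58 and CD52 and neither CD36 nor CD83. A match is a description of these letters, and CD36 has several annotated starts of which this window covers 1.

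In H2A.X WT cells, with 2 libraries at each day, 1 of 24 members passed the test between D0 and D6, against 2% of all 13236 genes (0.839% up and 1.16% down). That member was CD44, with 2769.9 and 2771 normalized counts in the 2 WT libraries at D0 and 1427 and 1288 at D6, a fall by 1.03 ± 0.15 on the log2 scale (adjusted p = 0.0177). The call was lost without either WT library at D0 or without WT replicate 2 at D6. Those fits left 1 WT library at a day, and nearly all calls among genes at large were lost in them too. CD36 had 14824 and 14179.7 normalized counts at D0 and 21420.3 and 21609.8 at D6, which did not overlap, with a log2 fold change of 0.57 ± 0.18 (adjusted p = 0.115). The replicate number was taken to pair D0 and D6 libraries here, and with it as a block 5 members passed, against 8.51% of all genes under that fit. These were CD44, CD36 (adjusted p = 0.033), CD164 (-0.58, adjusted p = 0.045), CD52 (2.19, adjusted p = 0.0448) and CD69. CD69, an early activation antigen of lymphocytes and eosinophils, had no read in WT cells at D0 and 27.4 and 7.16 normalized counts at D6, at least 5.22-fold higher.

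In H2A.X KO cells, with 3 libraries at each day, 13 of 24 members passed, 2 up and 11 down. That is 54.2% of the members against 30.9% of all genes (14.8% up and 16.1% down), and 17 passed with the replicate block (38.5% of all genes). The genotypes held unlike numbers of libraries, so these counts do not compare the size of their changes. CD36 had 10964, 9413 and 8869 normalized counts at D0 and 38395, 40569.8 and 31798 at D6, a 3.79-fold rise (log2 fold change 1.92 ± 0.15, adjusted p = 6.2e-05). CD58 had 308, 349 and 319 at D0 and 837, 1054 and 771 at D6, a 2.73-fold rise (adjusted p = 0.000392). In both genes every D6 library stood above every D0 library. CD70 fell most firmly, from 1051, 878 and 819.9 to 204, 192 and 219 normalized counts (log2 fold change -2.16 ± 0.18, adjusted p = 7.94e-05). CD52 had 183, 162 and 177 at D0 and 1.84, 12.4 and 16.4 at D6 (-4.08 ± 0.51), and CD83 had 105, 60.1 and 65.8 at D0 and 11.9, 5.70 and 13.5 at D6 (-2.87 ± 0.41), both without overlap. CD37, CD63, CD40, CD320, CD247, CD47, CD81 and CD69 were the other members that fell, CD37 by 1.91, CD63 by 1.42, CD320 by 0.93 and CD47 by 0.52 on the log2 scale. Leaving out KO replicate 2 or 3 at D0 or KO replicate 2 at D6 left 7 members called (20.2% to 21.5% of all genes). These were CD36, CD70, CD58, CD52, CD83, CD37 and CD63.

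**Figure D3:**
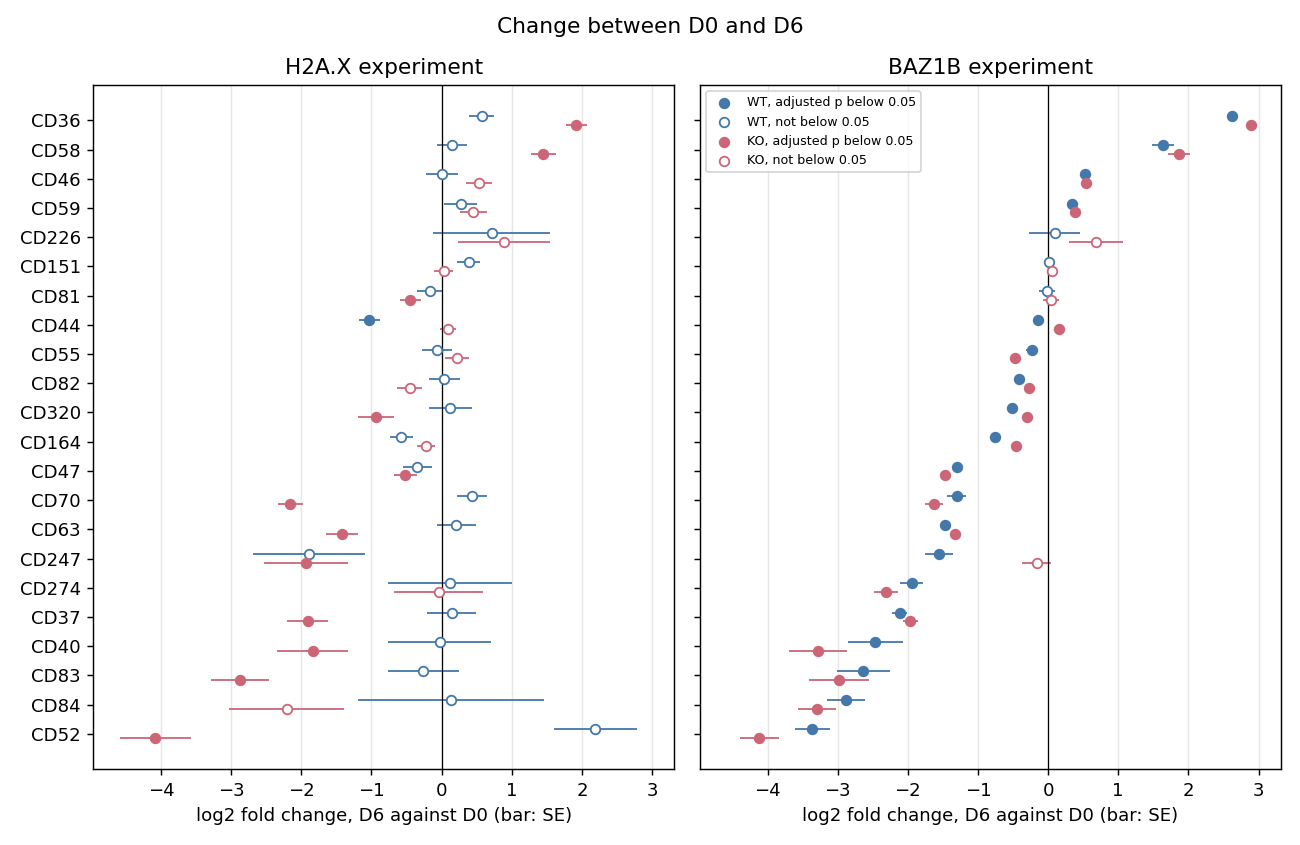
Log2 fold change from D0 to D6 of the 22 members tested in both experiments, with SE bars; filled points passed an adjusted p of 0.05 (edgeR) and open points did not, blue WT and red KO. Members are ordered by their change in the BAZ1B experiment, where WT and KO points lie close together except for CD247, and the H2A.X WT points lie nearer 0 than the KO points for CD36, CD58, CD70, CD63 and CD37.

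Between H2A.X KO and WT cells at D0, 10 of 24 members differed, 6 higher and 4 lower in KO cells, against 35.1% of all genes (18.4% higher and 16.7% lower), so the members were called about as often as genes at large. CD58, CD36, CD151 and CD81 were lower in KO cells, and CD52, CD37, CD83, CD84, CD40 and CD69 were higher. CD58 had 760.2 and 1003 normalized counts in WT cells and 308, 349 and 319 in KO cells, 2.71-fold lower (log2 fold change -1.44 ± 0.19, adjusted p = 0.00312). CD36 was 1.49-fold lower (-0.57 ± 0.16, adjusted p = 0.0209), with all 3 KO libraries (10964, 9413 and 8869) below both WT libraries. The 8 erythroid markers moved with CD36 and CD58, summing to between 378050 and 499910 normalized counts in WT cells and between 204550 and 268090 in KO cells at D0, and their part in these results was not tested. CD52 had 16.2 and 17.9 normalized counts in WT cells and 183, 162 and 177 in KO cells, 10.1-fold higher (adjusted p = 0.0056). CD37 had 269.9 and 217 in WT cells and 834, 670.4 and 567 in KO cells, 2.84-fold higher (adjusted p = 0.0101), and CD83 was 3.30-fold higher (adjusted p = 0.0171), neither with overlap.

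CD84 rested on few reads and 1 high library, with 5.05 and 3.59 normalized counts in WT cells and 78.6, 18.0 and 25.5 in KO cells (adjusted p = 0.0407). CD40 had 6.07 and 3.59 in WT cells and 16.9, 15.5 and 15.6 in KO cells (adjusted p = 0.0469), a call lost with DESeq2 (adjusted p = 0.102), upper-quartile scaling (0.054) and no filter on low counts. CD69 had no read in WT cells and 2, 11 and 20 reads in KO libraries, at least 2.78-fold higher (adjusted p = 0.0343), and CD4, the helper T cell coreceptor, which also had no WT read and 22, 4 and 10 reads in KO cells, did not pass (adjusted p = 0.0627). The order of these calls depended on the fit: DESeq2 called both (adjusted p = 0.0148 for CD69 and 0.0305 for CD4), and the replicate block CD4 and not CD69 (0.0166 and 0.0708). Mast cell and eosinophil markers summed to between 1834 and 2471 normalized counts in WT and between 3721 and 7481 in KO cells at D0, and megakaryocyte markers to between 154 and 170 and between 575 and 1330. The 6 monocyte markers summed to between 2.02 and 7.18 in WT and between 23.8 and 33.0 in KO cells, without overlap. Of the 11 mast cell and eosinophil markers 6 were tested and 4 called higher, against 18.4% of all genes. Of the megakaryocyte and of the monocyte markers 1 each was tested, and both were called higher. Lymphocyte markers summed to 5.76 at most, with 7 of 8 without a read in WT cells, and the part of these cell types in the CD52, CD84, CD83 and CD69 results was not tested. The calls were lost when WT replicate 2 at D0 was left out, and so were nearly all calls among genes at large. In that fit 1 WT library stood for its group at D0 and was assumed to vary like the others. Without 1 KO library at D0, 5 or 6 of the 10 calls remained, when 19.5% to 22.4% of all genes were called.

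At D6, 10 of 24 members differed again, 3 higher and 7 lower in H2A.X KO cells, against 43.1% of all genes (22.2% higher and 20.9% lower). CD70 showed the firmest difference, with 1178 and 1269 normalized counts in WT cells and 204, 192 and 219 in KO cells, 5.96-fold lower (log2 fold change -2.58 ± 0.19, adjusted p = 0.000365). CD63 had 4757 and 5347 in WT cells and 1281, 1014 and 1677 in KO cells (-1.93 ± 0.25, adjusted p = 0.00267). CD320 had 1768 and 1979 in WT cells and 449, 411 and 852 in KO cells (-1.71 ± 0.28, adjusted p = 0.00383). For all 3 genes, each KO library held less than each WT library. CD52 had 88.0 and 68.0 normalized counts in WT cells and 1.84, 12.4 and 16.4 in KO cells, 7.64-fold lower (adjusted p = 0.00423), the opposite order from D0. In H2A.X WT cells CD52 (both libraries) and CD70 (group mean) were higher at D6 than at D0. The CD52 rise was called in some fits only and the CD70 rise in none. Both genes fell from D0 to D6 in H2A.X KO cells and in both BAZ1B genotypes, so the WT cells of the 2 experiments moved in opposite directions. CD69 had 1 read in KO cells and was 62 times higher in WT cells (95% counting interval 10.3 to 2536). CD151 and CD81 were lower in KO cells by 1.0 and 0.79 on the log2 scale as well.

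CD36, CD44 and CD46 were higher in H2A.X KO cells at D6. CD36 had 21420.3 and 21609.8 normalized counts in WT cells and 38395, 40569.8 and 31798 in KO cells (log2 fold change 0.78 ± 0.16, adjusted p = 0.00588). CD44 had 1427 and 1288 in WT cells and 2471, 2249.6 and 2554 in KO cells (0.84 ± 0.13, adjusted p = 0.00372), and CD46 was 1.69-fold higher (adjusted p = 0.0171). None of these groups overlapped, whereas the erythroid marker sums did (584560 to 952220 in WT and 704090 to 1155400 in KO cells). CD47 had 1271 and 1437 in WT cells and 1578, 1397 and 1190.3 in KO cells, overlapping groups with a difference of 0.04 ± 0.18 (adjusted p = 0.885). Mast cell and eosinophil marker sums were now lower in KO cells (57.0 to 237 normalized counts) than in WT cells (2552 to 4072). Of the 11 markers 6 were tested and 2 called lower, against 20.9% of all genes, and a sum follows its most abundant genes. In WT cells the sum was 1834 to 2471 at D0, and none of the 6 was called between the days. The part of these markers in the CD52, CD63 and CD69 results was not tested. Without WT replicate 2 at D6, CD63 and CD70 remained called. That fit left 1 WT library at D6, and nearly all calls among genes at large were lost in it.

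Fold changes between H2A.X KO and WT cells followed transcript length, with a Spearman correlation across 12017 genes of 0.544 at D0 and 0.601 at D6, against -0.0301 and 0.0524 across 12408 genes between BAZ1B KO and WT cells. Genes are not independent replicates, so these values describe the libraries. When each library was corrected for length and GC content, 7 of the 10 members called at D0 remained called, all but CD151, CD81 and CD84, and the split was 7 higher and 4 lower, because CD70 and CD82 were now called higher and CD44 and CD59 lower. CD81 changed sign to 0.10 (adjusted p = 0.62). At D6 the split went from 3 higher and 7 lower to 7 lower and none higher, with 8 members at an unadjusted p below 0.05. DESeq2 without the correction called 3 higher and 7 lower. With the correction 21.0% of all genes were called at each day, against 35.1% at D0 and 43.1% at D6 without it. At D6, 1320 of the 13236 genes were then higher and 1466 lower. CD36 came to 0.16, CD44 to 0.25 and CD46 to 0.43, with adjusted p of 0.385, 0.185 and 0.147, and CD47 became lower by 0.70 (adjusted p = 0.0309). CD70, CD63, CD320, CD52 and CD69 remained lower at D6, CD70 by 1.51 and CD63 by 1.12 on the log2 scale.

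The knockout effect itself differed between the days for 5 of 24 members (20.8%), against 1.34% of all genes, when the effect at D0 was subtracted from the effect at D6. Of all genes, 0.302% were called with a positive and 1.04% with a negative difference, and of the members 2 and 3. CD70 differed by -2.59 ± 0.28 (adjusted p = 0.00374), with 916 ± 120.2 normalized counts in KO cells (SD, n = 3) and 906 ± 255 in WT cells (n = 2) at D0. CD52 differed by -6.27 on the log2 scale (adjusted p = 0.00653), CD44 by 1.12 ± 0.19 (adjusted p = 0.0216) and CD36 by 1.35 ± 0.23 (adjusted p = 0.0224). For CD36 and CD52 the knockout effect was called in opposite directions at D0 and D6, and CD69 behaved like CD52 on far fewer reads (adjusted p = 0.0453). The CD36 call at D6 was lost with the length and GC correction. With the replicate block 9 members passed, against 4.17% of all genes, CD58 (1.29, adjusted p = 0.014), CD63 (-1.68, 0.015), CD37 (-2.01, 0.017) and CD83 (-2.62, 0.042) besides these 5. Without KO replicate 2 or 3 at D0, CD70 and CD52 remained of the 5, when 0.697% and 0.543% of all genes were called. Without either WT library at D6, which left 1 at that day, CD70 and CD52 remained, and without either at D0, CD70 alone. Fewer of all genes were called in those fits as well. KO and WT groups enter both this difference and the comparisons at each day, so these are not independent of each other.

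**Figure D4:**
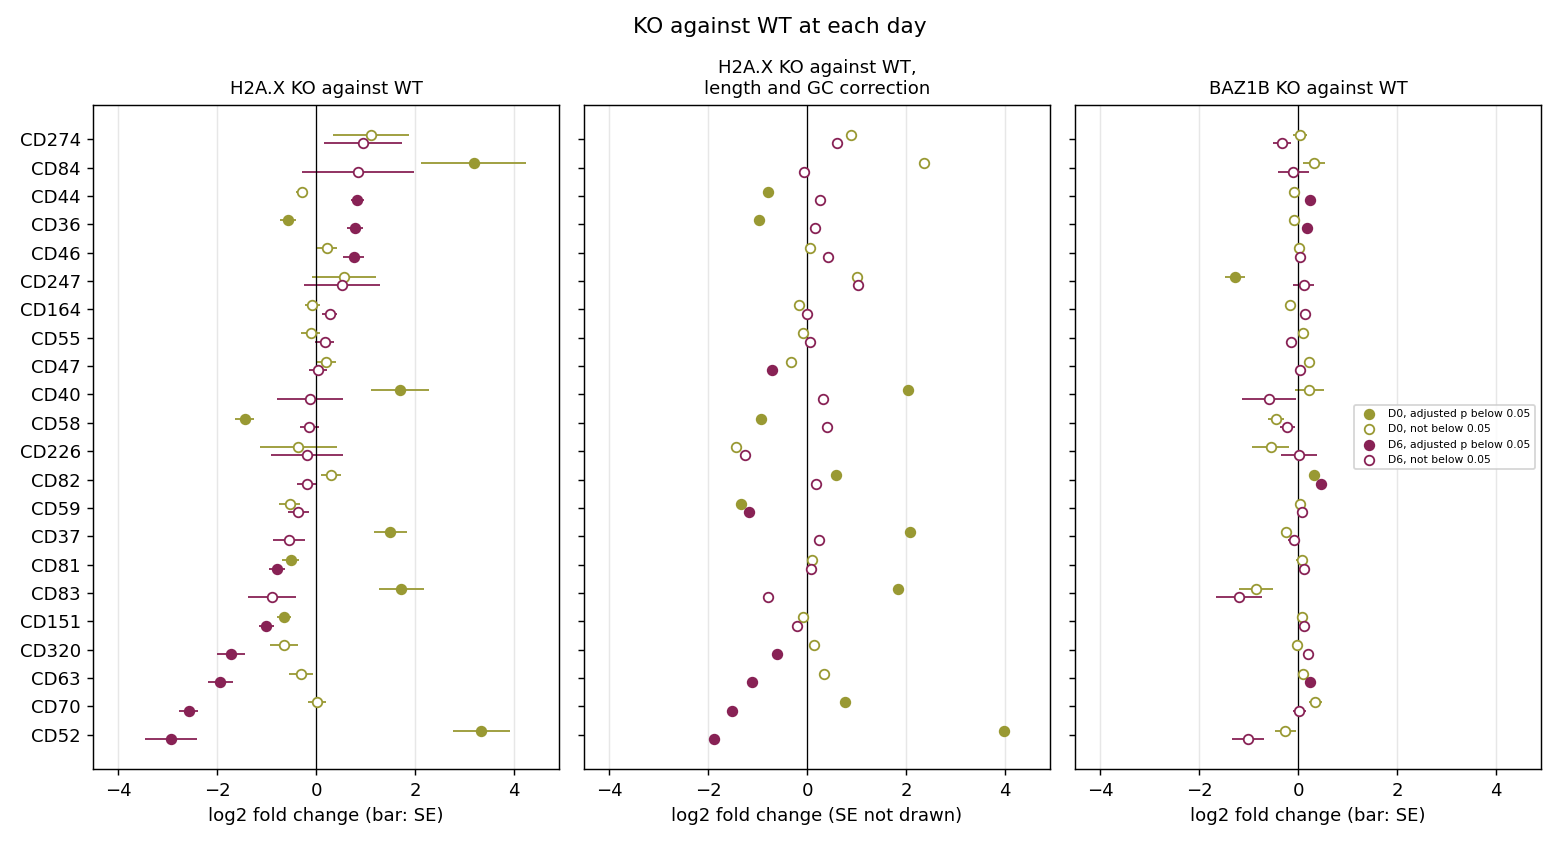
Log2 fold change of KO against WT at D0 (olive) and D6 (purple) for the 22 members tested in both experiments, ordered by the H2A.X difference at D6: H2A.X as fitted (left, SE bars), H2A.X after the length and GC correction (middle) and BAZ1B as fitted (right, SE bars). Filled points passed an adjusted p of 0.05 (edgeR). CD52 is at 3.34 at D0 and -2.93 at D6 in the left panel, the D6 points of CD36, CD44 and CD46 are filled left and open in the middle, and on the right CD247 at D0 (-1.28) lies farther from 0 than any other filled point.

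Loss of BAZ1B changed few members. At D0, 2 of 27 differed between BAZ1B KO and WT cells, against 3.88% of all genes (1.25% higher and 2.64% lower). CD247 had 171, 134 and 149.8 normalized counts in WT cells and 73.9, 54.6 and 58.9 in KO cells, 2.42-fold lower without overlap (log2 fold change -1.28 ± 0.20, adjusted p = 0.00256). CD82 had 7036, 6974 and 7131 in WT cells and 8362, 8667 and 9323 in KO cells, 1.25-fold higher (0.32 ± 0.05, adjusted p = 0.00273). Both calls were kept in each of the 12 fits that left out a library. Exons on the other strand cover 8.38% of the exonic bases of CD247 (POU2F1) and 6.93% of those of CD82 (CD82-AS1). Without KO replicate 1 at D0, 7 members were called, when the share of all genes called rose as well, to 9.35%, and without KO replicate 2, 4 were called (3.78% of all genes).

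At D6, 4 of 27 members differed, all higher in KO cells, against 12.8% of all genes, 6.87% higher and 5.97% lower. CD82 had 5347, 5224 and 5259.5 normalized counts in WT cells and 6834, 7789.7 and 7193 in KO cells (log2 fold change 0.46 ± 0.05, adjusted p = 9.23e-05). CD36 had 61454, 60908 and 61524 in WT cells and 67560.4, 68216 and 73544 in KO cells, 1.14-fold higher (adjusted p = 0.00981). CD44 was 1.18-fold higher (adjusted p = 0.00835) and CD63 1.18-fold higher (adjusted p = 0.031), and in all 4 genes every KO library lay above every WT library. CD63 was not called without WT replicate 2 or 3 or KO replicate 1 at D6, nor CD44 without WT replicate 2. CD47 did not pass at either day, with differences of 0.22 ± 0.07 at D0 (adjusted p = 0.109) and 0.04 ± 0.07 at D6 (adjusted p = 0.744).

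The BAZ1B knockout effect differed between the days for 3 of 27 members, against 2.47% of all genes, 1.58% with a positive and 0.893% with a negative difference. CD247 differed by 1.39 ± 0.29 (adjusted p = 0.0279), being lower in KO cells at D0 and not at D6 (51.7 ± 11 in WT and 55.8 ± 10.2 in KO cells, SD). CD36 differed by 0.27 ± 0.06 (adjusted p = 0.0295) and CD44 by 0.31 ± 0.07 (adjusted p = 0.041), the latter a call lost with upper-quartile scaling (adjusted p = 0.0531) and with the length and GC correction (0.0659). None of the 3 was called after leaving out any WT library at D0, KO replicate 3 at D0, or WT replicate 1 or 3 at D6, where 5 or 6 members had an unadjusted p below 0.05, and 1 remained without WT replicate 2 or KO replicate 3 at D6. In those fits 0.844% to 1.49% of all genes were called. DESeq2 called 4 members in this comparison (5.71% of all genes). Marker sums also differed between BAZ1B KO and WT cells. Megakaryocyte markers summed to between 2724 and 2841 normalized counts in WT cells and between 1293 and 2543 in KO cells at D0, and to between 319 and 393 and between 57.6 and 183 at D6, with no overlap at either day. Of these 8 markers 1 was tested, and it was not called at D0 (log2 fold change -0.51) and was called lower at D6 (-1.59). Erythroid marker sums were higher in KO cells at D0 (265400 to 283940, against 222550 to 248400 in WT cells) and monocyte marker sums lower at D6 (8.37 to 22.1, against 26.8 to 30.2), also without overlap. A sum follows its most abundant genes. Of the 8 erythroid markers tested at D0, 1 was called higher and 2 lower (1.25% and 2.64% of all genes), with a median log2 fold change of -0.07. Of the 6 monocyte markers 2 were tested, and neither was called at D6. The mast cell and eosinophil sums (17070 to 23315 in KO cells at D0 and 459.5 to 1442 at D6) overlapped the WT range at each day. The part of these markers in the CD247, CD82, CD36, CD44 and CD63 results was not tested.

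At a stricter threshold that also asks for size (adjusted p below 0.001 with a log2 fold change over 1.5 in size), maturation still moved many members and knockout few. From D0 to D6 in the BAZ1B experiment, 11 members passed in WT cells (11.7% of all genes) and 12 in KO cells (11.5%). CD36, CD58 and CD80 were those that rose in both. In H2A.X KO cells, CD36, CD52, CD70 and CD83 passed from D0 to D6 (3.22% of all genes), and in WT cells no gene at all passed, where 7 members had an unadjusted p below 0.05 and DESeq2 called 5 at the usual threshold. Of the knockout comparisons, H2A.X at D6 gave 1 member, CD70 (0.151% of all genes). The others gave none, against 0.166% of all genes for H2A.X at D0, 0.36% and 0.749% for BAZ1B at D0 and D6, and 0% and 0.0288% for the H2A.X and BAZ1B differences between days, with 13, 10, 9, 10 and 6 members at an unadjusted p below 0.05 in edgeR and 10, 2, 7, 9 and 4 called by DESeq2 at the usual threshold.

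The CD-numbered genes hold only part of the erythroid surface, and 30 further antigens of the lineage that carry another symbol were read as a list, of which 27 were tested in each experiment. From D0 to D6 in BAZ1B WT cells, 15 of the 27 rose and 10 fell, with the same counts in KO cells, against 33.5% up and 35.4% down of all genes in WT and 33.2% and 34.5% in KO cells. SLC4A1, the anion exchanger band 3, rose by 6.83 ± 0.25 on the log2 scale in WT cells (1206 to 136730 normalized counts, group means) and the urate and porphyrin exporter ABCG2 by 3.66 ± 0.42, while ALCAM, an adhesion molecule, had no read at D6. In H2A.X KO cells 14 rose and 5 fell (14.8% and 16.1% of all genes), among them SLC4A1 (5.48 ± 0.91) and the platelet integrin ITGA2B (-3.80 ± 0.44), and in H2A.X WT cells 1 passed (2% of all genes), SEMA7A (1.55 ± 0.33, adjusted p = 0.0438). Between H2A.X KO and WT cells, 9 were higher and 7 lower in KO cells at D0 (18.4% and 16.7% of all genes), and 7 higher and 1 lower at D6 (22.2% and 20.9%), where FAS, the integrin ITGB1 and the transferrin receptor TFRC were higher by 2.26, 1.97 and 1.35. These H2A.X values are without the length and GC correction, although fold changes between these genotypes followed transcript length. Between BAZ1B KO and WT cells, 1 was higher and 3 lower at D0 (1.25% and 2.64% of all genes) and 3 higher and 7 lower at D6 (6.87% and 5.97%), with SLC4A1 lower by 2.88 ± 0.25 at D0 and 0.77 ± 0.19 at D6.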

How the data were processed

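RNA-Seq libraries of HUDEP-2 cells were prepared by the authors for 22 samples, 10 in the H2A.X experiment and 12 in the BAZ1B experiment. Per the submitters' processing notes, reads were aligned to hg38 with STAR 2.7.0f, counted per gene with featureCounts (Subread 1.6.4) and compared with DESeq2 1.22.1, which was not used for the values here. The deposited values are raw read counts per gene, 1 table per experiment. The counting strand, and which of 2 described library kits was used, are not given in the sources used here, so reads of a gene and an overlapping gene on the other strand cannot be told apart. The tables were not normalized to each other, and no test was run across them.

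Groups came from the sample titles. Counts were tested with edgeR 4.0.16 in R 4.3.3 (filterByExpr with a count minimum of 10 and a total of 15, TMM normalization, 1 coefficient per genotype and day over all libraries of an experiment, quasi-likelihood test, two-sided, Benjamini-Hochberg adjustment over all genes tested), and a gene was called at an adjusted p below 0.05. SE was the absolute log2 fold change divided by the square root of F. The libraries are described as subclones or cultures of 1 line, with no further account of how each replicate was grown, so p-values measure the spread between these samples. For genes without a read in 1 group, the floor was 3 reads per library, and intervals and floors cover counting error only. The script was tested on simulated counts.

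Members and lists were chosen with earlier results of these data known. Named were CD34, CD36, CD38, CD44 and CD47, the 3 called members with the largest change in each direction of each comparison (mean of at least 20 normalized counts), the 8 with the highest level per kilobase, the tested tetraspanins and complement regulators, and members whose knockout effect differed between days. Other members, such as CD40, CD80, CD274 and CD4, were named after their values were seen. Alternatives were DESeq2 1.42.0, upper-quartile and RLE scaling, no low-count filter, only the libraries compared, a replicate block, a smooth per-library correction for length and GC content of transcripts (mgcv 1.9.3), a stricter threshold (adjusted p below 0.001 and absolute log2 fold change above 1.5) and leaving out each library.

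The replicate number was taken to pair D0 and D6 libraries of a genotype in the H2A.X experiment, where the deviations of same-numbered libraries from their group means correlated at 0.272 to 0.549 over 8619 genes. With 2 WT libraries at each day, the 2 WT correlations are the same number (0.548) by construction. No cutoff for pairing was set. Correlations were lower between WT and KO libraries there (0.0987 to 0.233) and, in the BAZ1B experiment, between D0 and D6 libraries of WT cells (-0.0441 to 0.199 over 8638 genes). Those of BAZ1B KO cells were mixed, at 0.473 and 0.55 for replicates 1 and 2 and 0.109 for replicate 3. Promoter sequences came from RefSeq (GRCh38.p14) by gene symbol.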

Additional observations from a re-analysis of the deposited data

Results flagged for a closer look

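The effect of the knockout differed between D0 and D6 for 8 gene and experiment pairs by the test of the difference itself (edgeR quasi-likelihood test). In the H2A.X experiment these were CD52 (-6.27 on the log2 scale, the D6 effect less the D0 effect), CD70 (-2.59), CD36 (1.35), CD44 (1.12) and CD69 (-11.59, a fitted value that depends on the prior count, since WT cells had no CD69 read at D0). CD52 and CD69 were higher in KO cells at D0 and lower at D6, and CD36 was lower at D0 and higher at D6. The higher CD36 call at D6 was lost with the length and GC correction. In the BAZ1B experiment they were CD247 (1.39), CD44 (0.31) and CD36 (0.27). CD36 and CD44 passed in both experiments, but the BAZ1B call of CD44 was lost with upper-quartile scaling and with the length and GC correction. The H2A.X calls of both genes were also lost without KO replicate 2 or 3 at D0 or any 1 WT library. That of CD44 was lost without KO replicate 1 at D0 too. Their BAZ1B calls were lost without any 1 WT library at either day or KO replicate 3 at either day. The BAZ1B call of CD36 was also lost without KO replicate 2 at D0, and that of CD44 without KO replicate 2 at D6.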

How the results depend on the processing

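The stricter threshold (adjusted p below 0.001 and absolute log2 fold change above 1.5) left 0 members called between H2A.X KO and WT cells at D0, 1 at D6 and 0 for the difference between days, 0 for H2A.X WT maturation and 4 for KO maturation. In the BAZ1B experiment it left 0 at D0, 0 at D6, 0 for the difference, 11 for WT and 12 for KO maturation. Of these thresholded counts the fold limit is part of the construction, and the members at an unadjusted p below 0.05 in edgeR numbered 13, 10, 10, 7 and 17 (H2A.X) and 10, 9, 6, 23 and 22 (BAZ1B), in the same order. For the H2A.X difference between days, 5 members were called (1.34% of all genes). DESeq2 called 9 (4.9%) and the fit with no filter on low counts 10 (3.95%). The replicate block called 9 (4.17%), and the block with the length and GC correction 9 (4.37%). For H2A.X WT maturation, 1 was called (2% of all genes). DESeq2 called 5 (7.72%), no filter 5 (4.98%), the replicate block 5 (8.51%) and only the libraries compared 2 (4.18%). The length and GC correction called 2 without the block (2.63%) and 2 with it (7.03%). For BAZ1B KO against WT, no filter called 10 at D0 (4.42% of all genes, against 3.88% with the filter). At D6 it called 9 (9.02%, against 12.8% with the filter), and DESeq2 called 7 (15.6%). The length and GC correction with the replicate block called 5 at D0 (4.54%). The cause of these moves was not tested.

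Leaving out 1 library at a time gave 0 to 11 called members for H2A.X KO against WT at D0, 2 to 11 at D6, 1 to 10 for the difference, 0 to 2 for WT maturation and 7 to 14 for KO maturation. Fits without 1 H2A.X WT library left 1 in that group, and the share of all genes called fell in them too. In the BAZ1B experiment the ranges were 2 to 7, 2 to 6, 0 to 6, 20 to 23 and 22 to 22. The shares of all genes there ran from 1.83% to 9.35%, 7.88% to 17.3%, 0.844% to 5.41%, 63.4% to 71.2% and 62.7% to 67.1%. The H2A.X difference reached 10 without KO replicate 3 at D6, the KO library without the word Redo (6.45% of all genes). The BAZ1B difference reached 6 without KO replicate 1 at D0 (5.41%).

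Signs turned in the H2A.X experiment under the length and GC correction for CD81 (0.10 at D0 and 0.09 at D6, or 0.09 and 0.08 with the replicate block), for CD47 at D6 (-0.70, or -0.69 with the block) and for CD58 at D6 (0.47 with the block). For BAZ1B KO libraries the replicate block changed no call from D0 to D6. Where correlations of same-numbered libraries were low or mixed, the replicate block called 11 members for H2A.X KO against WT at D0 (adding CD4 and CD320, losing CD69) and 11 at D6 (adding CD4), and in the BAZ1B experiment 3 members at D0 (adding CD244), 5 at D6 (CD320), 4 for the difference (CD164) and 23 for WT maturation (CD244). Of all genes, these block fits called 41.5% and 48.8% (H2A.X) and 4.22%, 13.0%, 5.17% and 72.2% (BAZ1B), in the same order. Upper-quartile scaling moved the median log2 fold change of all genes between H2A.X KO and WT cells at D6 to -0.11. Among called values, 280 of the H2A.X and 415 of the BAZ1B alternatives other than leaving out a library kept direction and side of the threshold, while 21 and 4 kept direction only. Members with fewer than about 10 reads per library, CD34 and CD38 among them, could not be compared at this depth.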
